A study of Mus musculus with 6 samples.

Results

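The nuclear-encoded subunits of oxidative phosphorylation were taken as every gene of the count table whose symbol follows the naming of complexes I to V (Nduf, Sdh, Uqcr, Cox4 to Cox8 and Atp5) or is Cycs, the gene of somatic cytochrome c. The rule found 83 of the 16000 genes in the table: 37 of complex I, 4 of complex II, 8 of complex III, 1 for cytochrome c, 16 of complex IV and 17 of complex V. Of these, 79 had enough reads to be tested, among 11972 genes tested in all. The 4 left out were Cox4i2, Cox7a1, Cox7b2 and Cox8b, all of complex IV. Ndufa4 was counted with complex I by its symbol, although its protein is known as a subunit of complex IV.

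RNA-seq libraries came from NIH3T3, a long-established line of mouse embryonic fibroblasts. The groups were 3 libraries of RAI16 KO cells and 3 libraries of WT cells, and the cells of both groups were serum-starved, which makes fibroblasts stop dividing. The question was which transcripts differ between KO and WT cells in that state. Whether libraries of the same group are separate cultures, whether the KO cells are 1 clone, and which lesion they carry is not in the labels, so p-values measure only how far these libraries scatter, and that scatter may be technical. The targeted gene is listed under its mouse symbol Fam160b2 (NCBI gene 239170), which had 5.53, 5.37 and 5.43 FPKM in KO replicates 1, 2 and 3, against 6.27, 5.55 and 5.82 FPKM in WT replicates 1, 2 and 3. Its log2 fold change was -0.12 ± 0.07 (SE; edgeR adjusted p = 0.184), and a transcript level says nothing about the protein.

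Oxidative phosphorylation takes electrons from NADH at complex I and from succinate at complex II, passes them through ubiquinone, complex III and cytochrome c to oxygen at complex IV, and uses the proton gradient built on the way to make ATP at complex V. Complexes I, III, IV and V combine subunits encoded in mitochondrial DNA with many more encoded in the nucleus, while complex II is wholly nuclear-encoded. The nuclear subunits are known as housekeeping genes that every fibroblast expresses, and several of complex IV have tissue isoforms for muscle, lung or testis. The genes of mitochondrial DNA were not analysed here.

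Depth was 17805417 to 18368760 counts in the KO libraries and 16741607 to 17482451 counts in the WT libraries. KO replicate 2 stood apart: its counts differed from those of KO replicates 1 and 3 with a chi-square of 28.6 and 26.5 per degree of freedom, against 1.72 between KO replicates 1 and 3 and 1.90 to 2.25 among the WT libraries. In KO replicate 2 the level of a gene depended on its length. Relative to the mean of KO replicates 1 and 3, the median log2 CPM difference was 0.35 for genes of at most 500 bases and -0.22 for genes over 5000 bases. KO replicate 2 also held transcripts of skeletal muscle. Of 10 muscle markers 8 were in the table, and their summed level was 5.21, 33.8 and 4.45 CPM in KO replicates 1, 2 and 3, against 4.62, 4.68 and 4.83 CPM in the WT libraries. Ckm, muscle creatine kinase, had 405 reads in KO replicate 2 and 0 reads in each of the other libraries. Actc1, cardiac actin, had 31 reads there and 0 elsewhere, while Myh7 had 0 reads in all KO libraries and Myog had 1 read in KO replicate 2. All 15 fibroblast markers were tested, but only 1 epithelial marker (Krt8), 1 leukocyte marker (Cd68) and 2 endothelial markers had enough reads. Results are therefore given with and without KO replicate 2. The part of the length trend and of the muscle transcripts in the results that use KO replicate 2 was not tested.

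With all 6 libraries, 25 of the 79 tested subunit genes rose in KO cells, 5 fell and 49 did not pass the test (edgeR's quasi-likelihood test, called at an adjusted p under 0.05, with Benjamini-Hochberg adjustment across every tested gene). That is 38.0% called, against 59.6% of all genes tested, of which 30.5% rose and 29.2% fell. The share of subunits called lay below the share of all genes called, which is a description and was given no test. The subunits' median log2 fold change was 0.15, against 0.0028 over all genes. The subunit genes are mostly short, with a median derived length of 772 bases. Of 63 tested genes of at most 500 bases, 13 of them subunits, 38.1% were called, with a median log2 fold change of 0.17. The values were 40.9% and 0.15 for genes of 500 to 750 bases, and 46.1% and 0.13 for 750 to 1000 bases. The subunits thus lay near short genes in both values. No called subunit changed by 2-fold or more, whereas 10.9% of all genes did. The KO and WT libraries did not overlap for 37 tested subunits: KO was higher for 30 of them and lower for 7. Over all genes tested, the groups did not overlap for 67.6%, with KO higher in 34.1% and lower in 33.5%.

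The share of each library's reads that came from the 83 genes was 0.631%, 0.785% and 0.639% in KO replicates 1, 2 and 3, against 0.639%, 0.611% and 0.633% in WT replicates 1, 2 and 3. Summed FPKM (reads scaled by gene length and library depth, which allows levels of different genes to be added) was 6610, 8409 and 6652 in the KO libraries, against 6782, 6349 and 6717 in the WT libraries. KO replicate 2 lay well above all WT libraries, and KO replicates 1 and 3 lay at their level. Since bulk RNA was measured, less RNA per cell and a smaller share of cells with that RNA cannot be told apart.

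**Figure D1:**
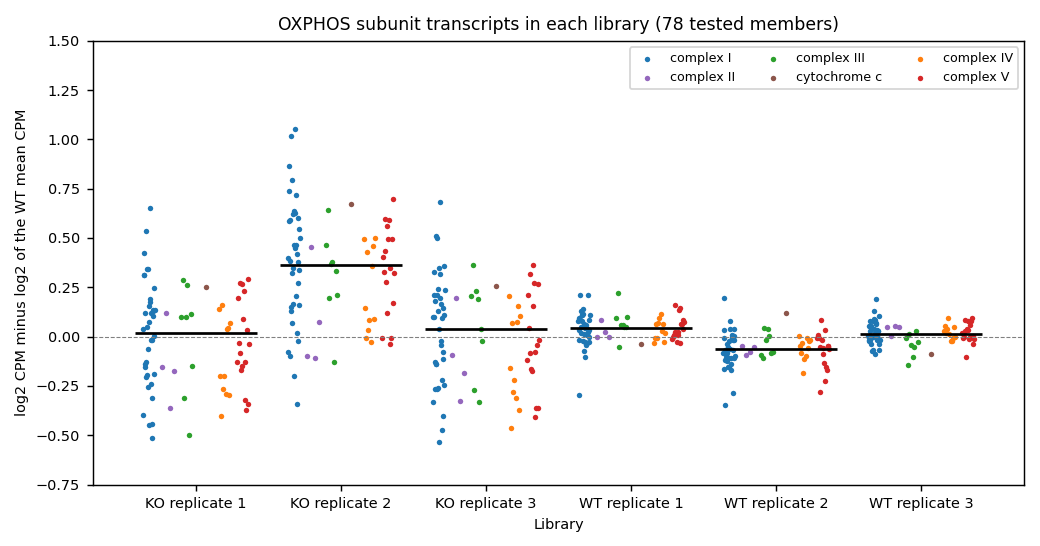
Each point is a subunit gene, plotted as its log2 CPM in a library minus the log2 of its mean CPM over the WT libraries, with the 3 KO libraries left of the 3 WT libraries and black bars at the median. The plot holds 78 tested genes and leaves out Cox6a2, which has few reads; points spread widely in all KO libraries, and those of KO replicate 2 as a whole lie higher than those of KO replicates 1 and 3.

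Every one of the 79 tested subunits had a higher log2 CPM in KO replicate 2 than the mean of KO replicates 1 and 3, with a median difference of 0.33, whereas the median over all genes tested was 0.02. The subunit genes are short, with a median derived length of 772 bases against 3578 bases for all genes tested. The same shift was seen in ribosomal protein genes, which are short as well: 77 of 78 genes of the mitochondrial ribosome (median 0.30) and 81 of 82 genes of the cytosolic ribosome (median 0.35) were higher in KO replicate 2. Among the subunits themselves the median difference was 0.33 for 13 genes of at most 500 bases, 0.38 for 22 of 500 to 750 bases, 0.21 for 6 of 2000 to 3000 bases and 0.37 for the 2 longest, and was 0.30 to 0.36 in the other classes. The Pearson r of the difference with log2 length across the 79 genes, which share these libraries, was -0.21, which is a description. WT replicate 2 lay lowest among the WT libraries, with 15 of 79 subunits above the mean of the other WT libraries and a median log2 difference of -0.09.

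**Figure D2:**
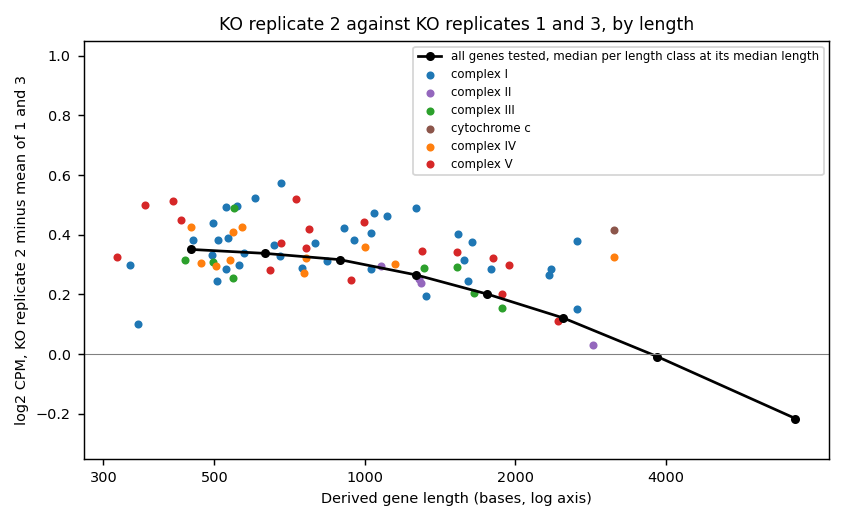
Coloured points are subunit genes, with the derived gene length in bases on a log axis and, on the vertical axis, log2 CPM in KO replicate 2 minus the mean of KO replicates 1 and 3. The black line joins the medians of all tested genes in 8 length classes, which run from 0.35 in the shortest to -0.22 in the longest; 78 subunits are drawn, all above 0, and Cox6a2 lies beyond the axis.

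Without KO replicate 2, rises and falls were about as many. In the fit of KO replicates 1 and 3 against the 3 WT libraries, 28 subunits rose and 30 fell, so 73.4% were called, beside 71.1% of all genes called in that fit, of which 36.0% rose and 35.1% fell. The median log2 fold change was 0.03. All 25 genes that had risen and all 5 that had fallen kept their calls. Of the other 49, 25 became called as lower in KO, 3 as higher, and 21 remained uncalled. A correction of all 6 libraries for gene length gave 29 that rose and 25 that fell, with a median log2 fold change of 0.03, while 67.1% of all genes were called. The 25 rises and 5 falls were called in all 3 fits, and the subunit genes named below as risen or fallen belong to them unless it is said otherwise. Leaving out WT replicate 1, 2 or 3 instead left 18, 19 and 15 subunits called, against 30 with all libraries. By complex, the median log2 fold change with all libraries was 0.18 for complex I, -0.10 for II, 0.20 for III, -0.08 for IV and 0.11 for V. In the fit without KO replicate 2 these medians were 0.06, -0.15, 0.12, -0.19 and -0.03, so that of complex V changed sign.

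**Figure D3:**
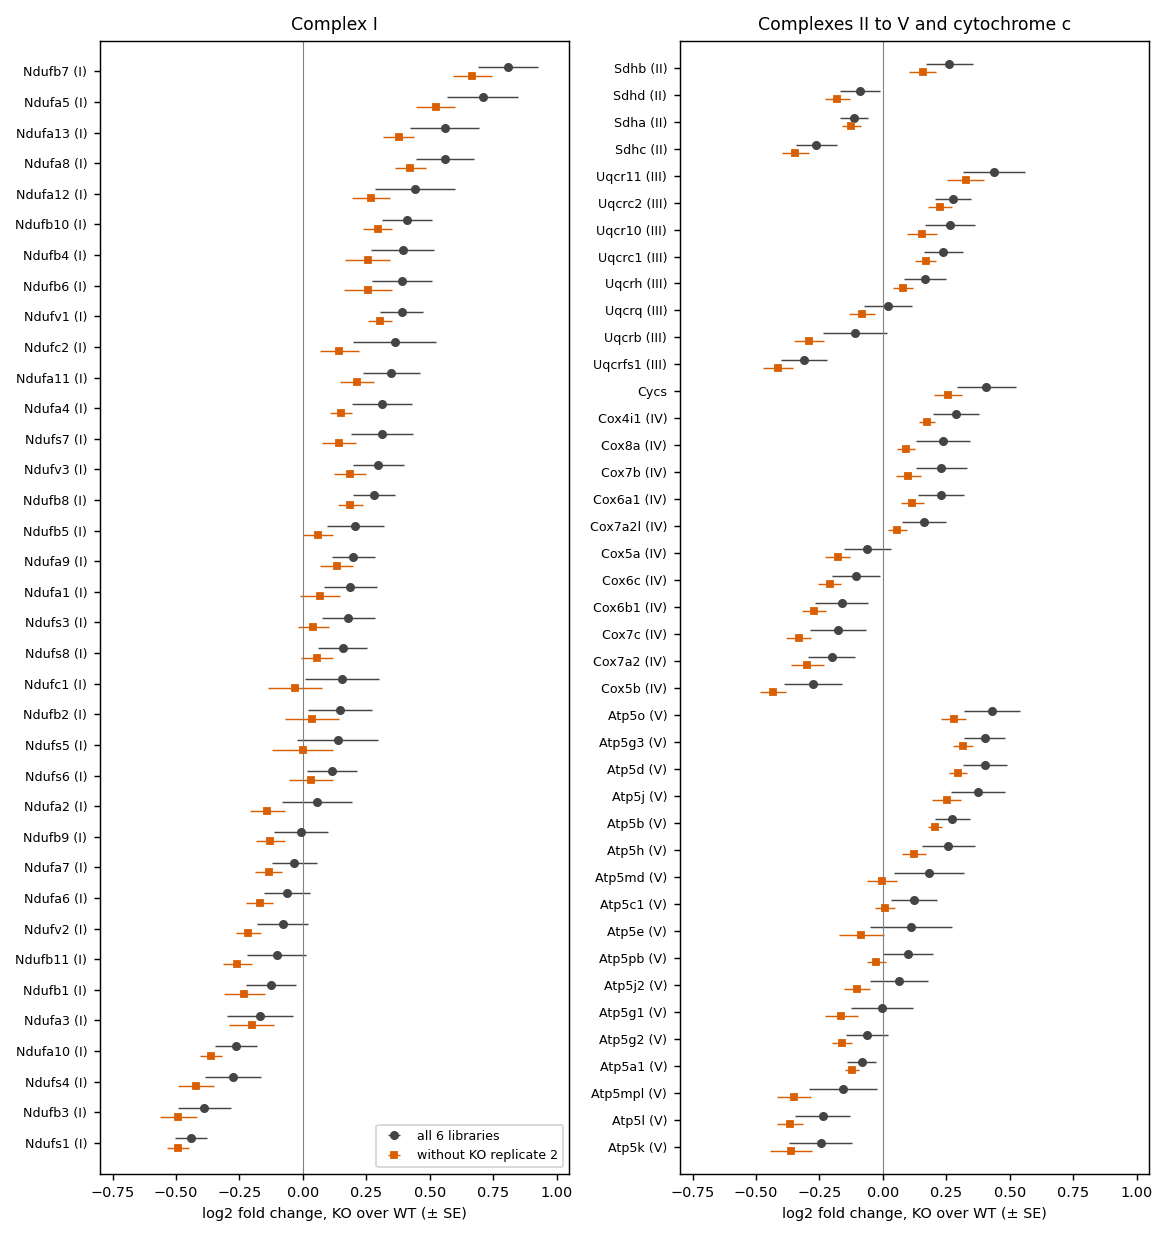
Log2 fold changes of KO over WT with their standard errors for 77 tested subunit genes, complex I on the left and the other complexes on the right, from all 6 libraries (dark circles) and without KO replicate 2 (orange squares). Leaving out KO replicate 2 moves every gene drawn to the left, by amounts that differ between genes.

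Complex I, the NADH dehydrogenase, has 7 nuclear-encoded core subunits that carry its flavin and iron-sulphur clusters. Among them Ndufv1 (NCBI gene 17995), which binds the flavin and takes the electrons from NADH, rose, and Ndufs1 (NCBI gene 227197), the large iron-sulphur subunit of the same module, fell. Ndufv1 had 60.1, 74.4 and 64.4 FPKM in KO replicates 1, 2 and 3, against 53.1, 49.7 and 47.8 FPKM in WT replicates 1, 2 and 3. All KO libraries lay above all WT libraries, and the log2 fold change was 0.39 ± 0.08 (SE; edgeR adjusted p = 0.00343). Ndufs1 had 27.7, 31.4 and 28.3 FPKM in KO libraries, against 38.4, 39.2 and 40.2 FPKM in WT libraries. All KO libraries lay below all WT libraries, KO replicate 2 included, and the log2 fold change was -0.44 ± 0.06 (edgeR adjusted p = 0.000325). No other core gene passed the test with all libraries. Ndufv2, an iron-sulphur partner of Ndufv1, had a log2 fold change of -0.08 with all libraries and was called as lower, at -0.22, without KO replicate 2. Ndufs3, Ndufs7 and Ndufs8, which belong to the ubiquinone-reducing module, were uncalled in both fits, with log2 fold changes of 0.18, 0.31 and 0.16. For Ndufs7 all KO libraries lay above all WT libraries, and it was called as higher after the length correction, at 0.18 on the log2 scale.

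The supernumerary subunits of complex I surround this core and are known to be needed for its assembly and stability. Of 29 tested, 11 rose and 2 fell with all libraries, and 11 rose and 9 fell without KO replicate 2. The shares called were 44.8% and 69%, beside 59.6% and 71.1% of all genes. Ndufa3, Ndufa6, Ndufa7, Ndufb1, Ndufb9 and Ndufb11 were uncalled with all libraries and called as lower without that library. Of these, Ndufa6, Ndufa7, Ndufb1 and Ndufb11 were also called as lower after the length correction. The largest rise among all subunit genes was that of Ndufb7 (NCBI gene 66916), a subunit on the intermembrane-space face of the membrane arm. It had 58.7, 78.2 and 59.6 FPKM in KO libraries, against 34.5, 39.2 and 37.7 FPKM in WT libraries. The groups were far apart even with KO replicate 2 set aside, and the log2 fold change was 0.81 ± 0.12 with all libraries (edgeR adjusted p = 0.000357) and 0.67 ± 0.08 without that library. Ndufa5 (NCBI gene 68202), a subunit of the matrix arm, followed with 56.0, 78.9 and 54.7 FPKM in KO libraries, against 42, 35.7 and 37.4 FPKM in WT libraries. Its log2 fold change was 0.71 ± 0.14 (edgeR adjusted p = 0.00219), and 0.52 without KO replicate 2.

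Ndufa8, an intermembrane-space subunit, and Ndufa13, which is also described as a regulator of cell death, each had a log2 fold change of 0.56 with all libraries and of 0.42 and 0.38 without KO replicate 2. Ndufa8 had 63.7, 87.6 and 70.4 FPKM in KO libraries, against 53.7, 45.8 and 49.9 FPKM in WT libraries, with no overlap. The 7 further supernumerary genes that rose were Ndufa11, Ndufa12, Ndufb4, Ndufb6, Ndufb8, Ndufb10 and Ndufv3, with log2 fold changes between 0.28 (Ndufb8) and 0.44 (Ndufa12). For Ndufa12 the spread in WT cells was wide, with 41.8, 56.5 and 38.8 FPKM in KO libraries, against 27.2, 38.3 and 34.7 FPKM in WT libraries, so the lowest KO library lay just above the highest WT library.

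The 2 supernumerary genes that fell were Ndufb3 (NCBI gene 66495), a subunit of the distal membrane arm, and Ndufa10 (NCBI gene 67273), a subunit related to nucleoside kinases. Ndufb3 had 35.2, 42 and 32.9 FPKM in KO libraries, against 48.0, 42.8 and 52.2 FPKM in WT libraries. KO replicate 2 came close to WT replicate 2 without reaching it, and the log2 fold change was -0.39 ± 0.11 (edgeR adjusted p = 0.0109). Ndufa10 had a log2 fold change of -0.26 with all libraries and -0.36 without KO replicate 2. Ndufs4, a matrix-arm subunit whose loss in mice causes an encephalopathy like Leigh syndrome, missed the threshold with all libraries. It had 15.8, 21.3 and 16.1 FPKM in KO libraries, against 21.6, 21.1 and 21.2 FPKM in WT libraries, and a log2 fold change of -0.28 (edgeR adjusted p = 0.0541). KO replicate 2 alone lay at the level of the WT libraries, and without it the log2 fold change was -0.42 and passed the test.

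The most abundant transcript with a complex I symbol was Ndufa4 (NCBI gene 17992), the complex IV subunit named above. It had 243, 339 and 252 FPKM in KO libraries, against 235, 205 and 226 FPKM in WT libraries. KO replicate 1 lay little above WT replicate 1, and the log2 fold change was 0.31 ± 0.12 with all libraries (edgeR adjusted p = 0.0483) and 0.15 without KO replicate 2. Its paralogue Ndufa4l2, known as a gene induced by hypoxia, had 3, 1 and 0 reads in KO libraries and 3, 5 and 3 reads in WT libraries and was not tested. Mean FPKM over the tested complex I genes spanned 17.9-fold from Ndufa11, the lowest, to Ndufa4.

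Of the 4 genes of complex II, succinate dehydrogenase, 1 rose and 1 fell, or 50% called, beside 59.6% of all genes. Without KO replicate 2, 100% were called, beside 71.1% of all genes. Sdhb (NCBI gene 67680), the iron-sulphur subunit, had 55.7, 70.7 and 58.5 FPKM in KO libraries, against 54.0, 47.8 and 51.0 FPKM in WT libraries. It rose by a log2 fold change of 0.26 ± 0.09 (edgeR adjusted p = 0.0354), though KO replicate 1 lay close to WT replicate 1. Sdhc (NCBI gene 66052), a membrane anchor that holds the haem, had 40.0, 48.1 and 40.7 FPKM in KO libraries, against 51.8, 48.4 and 52.9 FPKM in WT libraries. It fell, with a log2 fold change of -0.26 ± 0.08 (edgeR adjusted p = 0.0183) and -0.35 without KO replicate 2. Sdha, the flavoprotein, and Sdhd, the other anchor, were uncalled with all libraries and called as lower both after the length correction and without KO replicate 2, at -0.12 and -0.18 on the log2 scale without that library. The 4 genes of complex II were expressed at like levels: mean FPKM spanned 1.20-fold from Sdhc to Sdhd.

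In complex III, the cytochrome bc1 complex, 4 of 8 genes rose and 1 fell, or 62.5% called, beside 59.6% of all genes. Without KO replicate 2, 75% were called, beside 71.1% of all genes. Uqcr11 (NCBI gene 66594), a small subunit of the membrane part, had 86.8, 112 and 90.8 FPKM in KO libraries, against 82.2, 65.5 and 63.9 FPKM in WT libraries. WT replicate 1 came near the lowest KO library without reaching it, and the log2 fold change was 0.44 ± 0.12 (edgeR adjusted p = 0.0122). Uqcrc1 and Uqcrc2, the core proteins on the matrix side, rose by log2 fold changes of 0.24 and 0.28, and Uqcr10, another small subunit, by 0.26. Uqcrfs1 (NCBI gene 66694), the Rieske iron-sulphur protein that passes electrons to cytochrome c1, had 29.7, 38.7 and 33.1 FPKM in KO libraries, against 43.0, 41.8 and 40.1 FPKM in WT libraries. It fell, with a log2 fold change of -0.31 ± 0.09 (edgeR adjusted p = 0.0160) and -0.41 without KO replicate 2. Uqcrb, a subunit near the ubiquinone site, was uncalled with all libraries and called as lower without that library, at -0.29 on the log2 scale, and after the length correction. Uqcrh, the hinge protein, was the most abundant transcript of the complex, at 273 ± 31.0 FPKM in KO cells and 241 ± 11.5 FPKM in WT cells (SD, n = 3 each), and was uncalled in both fits.

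Cycs (NCBI gene 13063), the mobile electron carrier that also triggers apoptosis when released from mitochondria, had 18.8, 25.4 and 18.8 FPKM in KO libraries, against 15.3, 17.1 and 14.8 FPKM in WT libraries. The groups did not overlap, and the log2 fold change was 0.41 ± 0.12 with all libraries (edgeR adjusted p = 0.0143) and 0.26 without KO replicate 2. Its table entry has a derived length of 3154 bases, among the longest of the subunit genes. Cyc1, cytochrome c1 of complex III, whose symbol lies outside the naming rule, was uncalled with a log2 fold change of 0.03.

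Complex IV, cytochrome c oxidase, had the smallest share called with all libraries, 8.33%, beside 59.6% of all genes. By edgeR 1 of 12 tested genes rose and 0 fell. At an unadjusted p under 0.05 edgeR gave 2 that were higher and 1 that was lower, and DESeq2 called 1 and 1. When KO replicate 2 was left out, edgeR called 3 as higher and 7 as lower. That is 83.3% called, beside 71.1% of all genes in that fit, so the small share was not kept. The gene that rose in both fits was Cox4i1 (NCBI gene 12857), the subunit through which ATP is known to inhibit the enzyme. It had 339, 436 and 352 FPKM in KO libraries, against 299, 306 and 311 FPKM in WT libraries, the highest level of the complex. All KO libraries lay above all WT libraries, and the log2 fold change was 0.29 ± 0.09 (edgeR adjusted p = 0.0210) and 0.17 without KO replicate 2.

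Cox5b (NCBI gene 12859), the zinc-binding subunit, went the other way in KO replicates 1 and 3. It had 97.9, 130 and 93.4 FPKM in KO libraries, against 134, 121 and 130 FPKM in WT libraries, so KO replicate 2 lay within the WT range. Its log2 fold change was -0.28 with all libraries (edgeR adjusted p = 0.0624) and -0.43 without KO replicate 2, where it was called. Also uncalled with all libraries and called as lower in that fit were Cox5a (-0.18), Cox6b1 (-0.27), which bridges the monomers of the dimeric enzyme, Cox6c (-0.21), Cox7a2 (-0.30) and Cox7c (-0.33), all as log2 fold changes. All of these but Cox5a, and Cox5b too, were called as lower after the length correction. Cox6a1 and Cox8a were called as higher without KO replicate 2, at 0.12 and 0.09 on the log2 scale, and Cox8a also after the length correction. Cox7a2l, a relative of Cox7a2 known for joining complexes III and IV into supercomplexes, and Cox7b were uncalled in both.

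The tissue isoforms of complex IV had few reads in these fibroblasts. Cox6a2 (NCBI gene 12862), the heart and skeletal muscle isoform of Cox6a1, had 1, 18 and 3 reads in KO libraries, against 23, 10 and 10 reads in WT libraries. KO replicates 1 and 3 lay below all WT libraries and KO replicate 2 lay among them. Summed over KO replicates 1 and 3, 4 reads stood against 43 reads in the WT libraries, a KO over WT ratio of 0.133 per read sequenced, with a 95% exact counting interval of 0.0346 to 0.365 that covers counting error only. The edgeR log2 fold change was -1.04 with all libraries (adjusted p = 0.251) and -2.84 without KO replicate 2 (adjusted p = 0.000299). Cox8b, another muscle isoform, had 8 reads in KO replicate 2 and 0 in every other library. Cox7a1, a muscle isoform of Cox7a2, had 2, 7 and 2 reads in KO libraries, against 2, 4 and 3 reads in WT libraries. Cox7b2, a testis isoform, had 0 reads in each KO library, against 5, 4 and 1 reads in WT libraries. Cox4i2, the isoform of lung, had 0 reads in each KO library, against 0, 1 and 1 reads in WT libraries. The part of the muscle transcripts of KO replicate 2 in the reads of these isoforms was not tested.

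Complex V, the ATP synthase, had 5 of 17 genes that rose and 0 that fell with all libraries by edgeR, and DESeq2 gave the same counts. The share called by edgeR was 29.4%, beside 59.6% of all genes. At an unadjusted p under 0.05, 6 were higher and 0 lower. In the fit that leaves out KO replicate 2, 6 rose and 6 fell, or 70.6% called, beside 71.1% of all genes. The catalytic head of the ATP synthase consists of alternating alpha and beta subunits. Atp5b (NCBI gene 11947), the catalytic beta subunit and the most abundant of all subunit transcripts, had 441, 513 and 443 FPKM in KO libraries, against 382, 384 and 381 FPKM in WT libraries. The WT libraries lay within a narrow band and all KO libraries above it, and the log2 fold change was 0.27 ± 0.07 (edgeR adjusted p = 0.00695). Atp5a1 (NCBI gene 11946), the alpha subunit, had 223, 244 and 224 FPKM in KO libraries, against 240, 241 and 245 FPKM in WT libraries. It was uncalled with all libraries, at a log2 fold change of -0.08 with a 95% interval of -0.21 to 0.04, and called at -0.12 without KO replicate 2. Of the rotor and stator parts, Atp5d, the delta subunit of the central stalk, rose by a log2 fold change of 0.40, Atp5o, the protein that ties the head to the stator, by 0.43, and Atp5j, coupling factor 6 of the stator, by 0.37. Atp5h, the stator subunit d, was uncalled with all libraries and called as higher without KO replicate 2, at 0.12, and after the length correction.

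The 9 genes of the stator and membrane part of complex V divided evenly without KO replicate 2, with 3 that rose, 3 that fell and a median log2 fold change of -0.03. That is 66.7% called, beside 71.1% of all genes in that fit. Those uncalled in both fits were Atp5j2, Atp5md and Atp5pb. Atp5k and Atp5l, the subunits e and g at which ATP synthase dimers meet, had log2 fold changes of -0.36 and -0.37 without KO replicate 2, and Atp5mpl, a small proteolipid, had -0.35. With all libraries none of them was called, at -0.25, -0.24 and -0.16. The 3 genes of the c ring encode the same mature protein with different import signals. Atp5g3 (NCBI gene 228033) had 133, 164 and 141 FPKM in KO libraries, against 111, 105 and 112 FPKM in WT libraries, and rose by a log2 fold change of 0.40 ± 0.08 (edgeR adjusted p = 0.00228). Atp5g1 and Atp5g2 were uncalled with all libraries and called as lower without KO replicate 2, each at -0.16 on the log2 scale, and Atp5g2 also after the length correction.

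Ratios between subunit transcripts of the same library cancel the depth of that library. The pairs were chosen after their values had been seen, and with 3 libraries against 3 the smallest two-sided p an exact permutation test can give is 0.1, which all pairs given here reached. Because of that choice, reaching it is only a description. Atp5g3 made up 37.3%, 37.3% and 39.2% of the summed c-subunit FPKM in KO replicates 1, 2 and 3, against 31.4%, 29.9% and 31.1% in WT replicates 1, 2 and 3. Atp5g2 held 51.8% ± 0.874 in KO cells and 58.0% ± 0.704 in WT cells (SD, n = 3 each). KO replicate 2 lay with the other KO libraries in both shares. The third share, of Atp5g1, was 9.98%, 11.0% and 9.82% in KO libraries, against 11.3%, 11.9% and 10.2% in WT libraries. Its groups overlapped (exact permutation test, p = 0.2).

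The beta to alpha ratio of the ATP synthase head, Atp5b over Atp5a1 in FPKM, was 1.97, 2.10 and 1.98 in KO libraries, against 1.59, 1.59 and 1.56 in WT libraries. Sdhb over Sdhc was 1.39, 1.47 and 1.44 in KO libraries, against 1.04, 0.989 and 0.964 in WT libraries. Both ratios separated the groups with a gap wider than the spread within either group. In complex I, Ndufv1 over Ndufs1 averaged 2.27 ± 0.10 in KO cells and 1.28 ± 0.0967 in WT cells, and Ndufb7 over Ndufb3 averaged 1.78 ± 0.10 in KO cells and 0.786 ± 0.112 in WT cells (SD, n = 3 each). In complex III, Uqcrc1 over Uqcrfs1 averaged 2.25 ± 0.0800 in KO cells and 1.53 ± 0.0196 in WT cells, and in complex IV, Cox4i1 over Cox5b averaged 3.53 ± 0.214 in KO cells and 2.38 ± 0.149 in WT cells (SD, n = 3 each). In every one of these pairs the 3 KO libraries lay above the 3 WT libraries.

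**Figure D4:**
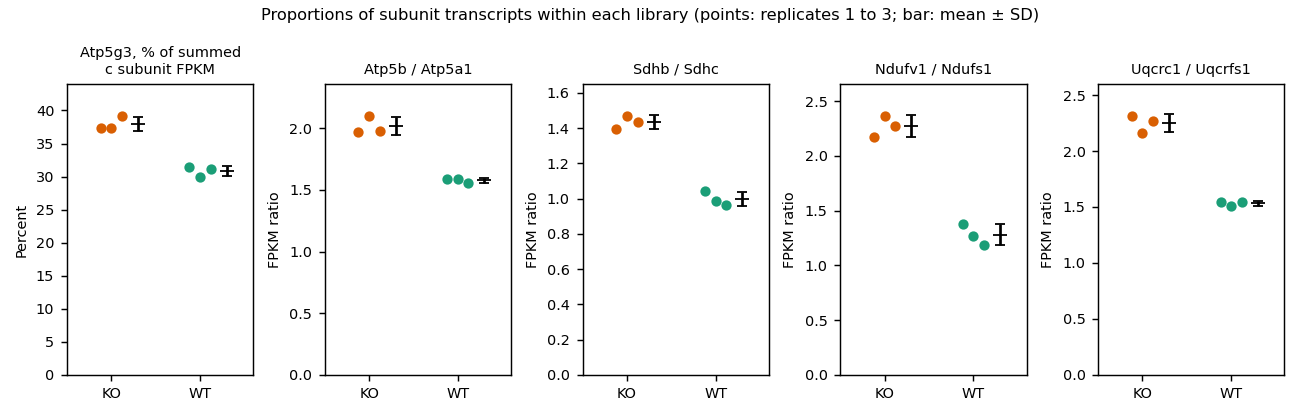
Points are single libraries (KO left, WT right, replicates 1 to 3 from left to right) and the black mark beside them is the mean ± SD of 3; the first panel gives the percent of summed c-subunit FPKM from Atp5g3 and the others give FPKM ratios of 2 subunits of the same complex. In all 5 panels the KO libraries lie above the WT libraries and KO replicate 2 lies near KO replicates 1 and 3, for example 1.97, 2.10 and 1.98 against 1.59, 1.59 and 1.56 for Atp5b over Atp5a1.

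The log2 fold changes of subunit genes went with those of the genes beside them on the chromosome. For each gene the median log2 fold change of the 20 nearest tested genes was taken, in the gene order of RefSeq's GRCm38.p6 annotation, which is not the build the authors named and was used for order only. Across the 79 tested subunits, a gene's own log2 fold change and that of its neighbours had a Pearson r of 0.63 and a Spearman rho of 0.72, with or without other subunit genes among the neighbours. Across the other 11862 genes placed in this way, the values were 0.28 and 0.45. These are descriptions across genes, which share libraries and, where close together, neighbours. Leaving out KO replicate 2, the Spearman rho of the subunits was 0.71 and Pearson's r was 0.41. For the other genes these were 0.45 and 0.27. The subunits in that fit included Cox6a2, with 1 and 3 reads in KO replicates 1 and 3 and the lowest log2 fold change, -2.84. Its part in the lower Pearson's r was not tested.

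All 6 tested subunit genes on chromosome 1, Ndufs1, Ndufb3, Ndufa10, Sdhc and Cox5b among them, had negative log2 fold changes, and the other 683 tested genes of the chromosome had a median of -0.49, with 71.7% of them called as lower in KO. Ndufs1 sat among 20 neighbours of which 17 fell, and Ndufb3 among 20 of which 15 fell and 1 rose. On chromosome 13, 5 of 6 subunit genes were negative, Uqcrfs1 and Ndufs4 among them, and the median of the other genes was -0.29. On chromosome 15 all 4 were negative, and on chromosome 9, 4 of 5.

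On chromosome 8 all 3 subunit genes, Ndufa13, Ndufb7 and Cox4i1, were positive, and the other genes of the chromosome had a median log2 fold change of 0.28. With all libraries, all 5 were also positive on each of chromosomes 2, 6, 10 and 19, all 4 on chromosome 4 and all 3 on chromosomes 3 and 16. Leaving out KO replicate 2, 1 of 3 was positive on chromosome 3, 3 of 4 on chromosome 4 and 4 of 5 on chromosomes 2 and 19, and the counts on chromosomes 6, 10 and 16 stayed as they were. The other genes had median log2 fold changes of 0.19 on chromosomes 2 and 19, 0.15 on chromosomes 6 and 16, 0.08 on chromosome 4 and 0.07 on chromosomes 3 and 10. On chromosome 10 the subunits thus stood above the rest, at 0.27 to 0.44. Uqcr11, on chromosome 10, sat among 20 neighbours of which 15 rose. Ndufa5 rose by 0.71 beside neighbours with a median of 0.04. The genes called with all libraries whose neighbours had a median of the opposite sign all rose: Ndufa11 (neighbours at -0.01), Ndufa4 (-0.10), Ndufv3 (-0.13), Uqcrc1 (-0.07) and Uqcrc2 (-0.08). The part of chromosome copy number or of the position of a gene in these values was not tested.

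**Figure D5:**
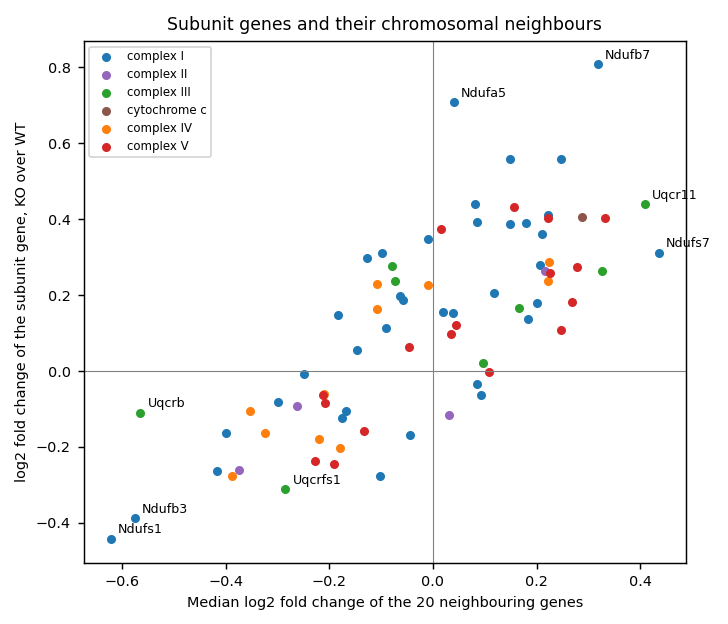
Each point is a tested subunit gene (78, without Cox6a2), with the median log2 fold change of its 20 nearest tested genes on the horizontal axis and its own log2 fold change, KO over WT from all 6 libraries, on the vertical axis. The points run from the lower left (Ndufs1 and Ndufb3, on chromosome 1) to the upper right (Ndufb7, Uqcr11), while Ndufa5 lies high beside neighbours near 0.

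Promoters of respiratory genes are known for binding sites of the factors NRF1, GABP (of the ETS family), YY1 and ERR alpha, so the letters of these motifs were searched on both strands of RefSeq's promoter windows (GRCm38.p6, 250 bases before to 50 after each start). Windows were found for 69 of the 83 subunit genes, 74 windows in all, against 32851 windows of all genes. GCGCATGCG, for NRF1, was in 12.2% of the subunit windows and 1.75% of all windows. CCGGAAG, for ETS factors, was in 23% of the subunit windows and 8.86% of all. AAGATGGCG, for YY1, was in 9.46% and 1.40%, and TCAAGGTCA, for ERR, in 2.70% and 0.423%. A match is only a run of letters. GCGCATGCG overlaps its own reverse complement, and a window was counted once however many matches it held. Of the 9 genes with the NRF1 letters, 5 rose and the others were uncalled with all libraries, and 6 rose and 3 fell without KO replicate 2. Of the 17 genes with the ETS letters, 5 rose and the others were uncalled with all libraries, and 8 rose and 4 fell without it. Of the 7 genes with the YY1 letters and the 2 with the ERR letters, 1 each rose with all libraries, and 1 each rose and 1 each fell without KO replicate 2. Among all 79 tested subunits, 25 rose and 5 fell with all libraries and 28 rose and 30 fell without that library. These counts of few genes are descriptions and were given no test.

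The windows of 5 genes are shown because they cover both directions: Ndufb7, Ndufa8 and Cycs rose, Ndufb3 fell, and Atp5l was uncalled with all libraries but lower without KO replicate 2 and after the length correction. They are written 5′ to 3′ on the strand of the gene, with motif letters in capitals. Ndufb7 (chr8:83566508-83566807, plus strand) has the ETS letters, Ndufa8 (chr2:36049289-36049588, minus strand) and Cycs (chr6:50566520-50566819, minus strand) have the NRF1 letters in reverse complement, Atp5l (chr9:44920693-44920992, minus strand) has the NRF1 letters and 2 copies of the ETS letters, all in reverse complement, and Ndufb3 (chr1:58586147-58586446, plus strand) has none of the 4 motifs.
Ndufb7: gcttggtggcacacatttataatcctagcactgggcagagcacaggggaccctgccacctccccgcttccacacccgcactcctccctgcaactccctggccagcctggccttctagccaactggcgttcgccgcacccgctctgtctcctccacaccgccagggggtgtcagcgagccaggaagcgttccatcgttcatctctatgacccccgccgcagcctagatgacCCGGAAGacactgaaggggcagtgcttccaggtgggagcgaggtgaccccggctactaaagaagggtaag
Ndufa8: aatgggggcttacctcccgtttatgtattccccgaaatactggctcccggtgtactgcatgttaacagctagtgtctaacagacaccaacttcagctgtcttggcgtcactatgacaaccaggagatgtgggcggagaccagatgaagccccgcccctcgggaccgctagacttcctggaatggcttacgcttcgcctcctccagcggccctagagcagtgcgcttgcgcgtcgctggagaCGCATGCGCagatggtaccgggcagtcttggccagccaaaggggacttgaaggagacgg
Cycs: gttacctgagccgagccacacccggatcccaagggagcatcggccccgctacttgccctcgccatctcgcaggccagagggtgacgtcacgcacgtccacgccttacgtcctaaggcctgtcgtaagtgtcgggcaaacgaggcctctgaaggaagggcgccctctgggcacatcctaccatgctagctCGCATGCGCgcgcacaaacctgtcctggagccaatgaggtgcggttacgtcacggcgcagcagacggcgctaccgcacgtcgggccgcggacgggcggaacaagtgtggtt
Atp5l: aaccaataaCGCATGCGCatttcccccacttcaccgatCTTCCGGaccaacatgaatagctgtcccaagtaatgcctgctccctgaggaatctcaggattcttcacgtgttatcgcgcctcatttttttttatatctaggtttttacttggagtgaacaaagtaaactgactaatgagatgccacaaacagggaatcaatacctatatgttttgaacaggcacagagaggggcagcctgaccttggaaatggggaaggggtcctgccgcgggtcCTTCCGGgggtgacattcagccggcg
Ndufb3: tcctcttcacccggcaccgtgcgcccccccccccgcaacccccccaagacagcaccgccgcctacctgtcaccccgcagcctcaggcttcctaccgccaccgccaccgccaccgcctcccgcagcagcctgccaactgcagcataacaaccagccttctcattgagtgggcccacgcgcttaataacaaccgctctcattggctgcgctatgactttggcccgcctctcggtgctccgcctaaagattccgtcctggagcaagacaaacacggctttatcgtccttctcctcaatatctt

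The same letters thus stand in promoters of genes that rose and of genes that were lower in KO: Atp5l, which holds motifs of both NRF1 and ETS factors, had 94.9, 123 and 95.2 FPKM in KO libraries, against 127, 110 and 129 FPKM in WT libraries. KO replicate 2 lay within the WT range, and KO replicates 1 and 3 lay below it.

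Transcripts of the factors known to act on such promoters were also measured. Of 17 tested regulators of respiratory genes, 13 fell and 1 rose with all libraries. That is 82.4% called, beside 59.6% of all genes called and 29.2% that fell. In the fit without KO replicate 2, 14 fell and 1 rose, or 88.2% called. In that fit 71.1% of all genes were called and 35.1% fell. These genes are long, with a median derived length of 6236 bases. Of all tested genes over 5000 bases, 59.3% were called with all libraries. The median log2 fold change of those long genes was -0.12, and -0.05 without KO replicate 2. For the regulators these medians were -0.33 and -0.29. After the length correction 12 regulators fell and 1 rose, beside 33.1% of all genes that fell. Among the regulators, 11 falls and 1 rise were called in all 3 fits. The largest fall was that of Ppargc1a, the coactivator known for driving mitochondrial biogenesis, which was low in both groups at 0.11, 0.09 and 0.0777 FPKM in KO libraries, against 0.658, 0.605 and 0.615 FPKM in WT libraries. Its log2 fold change was -2.76 ± 0.15 (edgeR adjusted p = 1.13e-06), with no overlap. Its relative Ppargc1b fell (-1.39), as did Nr1d1, the circadian repressor Rev-erb alpha, at -1.48 ± 0.07. Nrf1 (-0.22), the GABP genes Gabpa (-0.33), Gabpb1 (-0.24) and Gabpb2 (-0.56), and Yy1 (-0.28) fell as well, all as log2 fold changes, while Esrra, the gene of ERR alpha, rose by 0.33. Called changes of the subunit genes with all libraries lay between -0.44 and 0.81.

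Of 14 genes that copy and transcribe mitochondrial DNA, 4 fell and 1 rose, or 35.7% called, beside 59.6% of all genes. The falls were of Polg, the DNA polymerase (-0.58), Tfb2m, a transcription initiation factor (-0.58), Mterf3 (-0.57) and the nuclease Mgme1 (-0.38), and the rise was of Polrmt, the RNA polymerase (0.22). Without KO replicate 2, 8 fell and 2 rose, or 71.4% called, beside 71.1% of all genes.

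Assembly factors build each complex without staying in it. With all libraries the share called was 44.4%, 0%, 28.6% and 32% for complexes I to IV, below the 59.6% of all genes. For complex V it was 80%, above that of all genes. For complex I, 4 of 18 rose and 4 fell, or 44.4% called. Among the falls were Ndufaf3 (-0.70), Tmem126a (-0.65) and Foxred1 (-0.54). Ndufaf3 had few reads, with 25, 36 and 23 in KO libraries, against 40, 34 and 55 in WT libraries. The 95% interval of its log2 fold change was wide, from -1.28 to -0.12 (edgeR adjusted p = 0.0400). Complex II had 0 of 4 called by edgeR, 0 by DESeq2 and 1 at an unadjusted p under 0.05. For complex III, 2 of 7 rose, Smim4 (0.81) and Uqcc1 (0.41), which is needed to make cytochrome b. For complex IV, 4 of 25 rose and 4 fell, with Cmc2 at 0.74, Fastkd2 at -0.46 and Cox20, a chaperone of a mitochondrially encoded core subunit, at -0.49. For complex V, 3 of 5 rose, Fmc1 (0.48) among them, and 1 fell, Tmem70 (-0.35). Atpaf1, the chaperone of the beta subunit, had 7.58, 7.63 and 7.64 FPKM in KO libraries, against 4.78, 4.78 and 4.87 FPKM in WT libraries. Its log2 fold change was 0.65 ± 0.08 (edgeR adjusted p = 0.000169), and KO replicate 2 lay with the other KO libraries. In the fit without KO replicate 2, 4 rose and 5 fell for complex I, 0 and 2 for complex II, 2 and 1 for complex III, 5 and 10 for complex IV and 3 and 1 for complex V. The shares called were then 50%, 50%, 42.9%, 60% and 80% for complexes I to V, beside 71.1% of all genes. Of 4 tested subunits outside the naming rule, Ndufab1, the acyl carrier protein of complex I, rose (0.31).

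Among 7 tested genes that feed electrons into the chain by other routes, 5 rose and 0 fell by edgeR, with 1 lower at an unadjusted p under 0.05 and 0 by DESeq2, and 5 rose and 1 fell without KO replicate 2. Suox, sulphite oxidase, which hands its electrons to cytochrome c, rose by 1.41 ± 0.10, Etfdh, which passes on electrons of fatty acid oxidation to ubiquinone, by 0.53 ± 0.07, and Dhodh, of pyrimidine synthesis, by 0.43, all as log2 fold changes. Among 7 tested genes of nucleotide and phosphate exchange, 4 rose and 1 fell, with or without KO replicate 2. In both lists of 7 genes 71.4% were called with all libraries, beside 59.6% of all genes called. Without KO replicate 2 the shares were 85.7% for electron entry and 71.4% for exchange, beside 71.1% of all genes. In each list 1 called gene changed by 2-fold or more, and 10.9% of all genes did so. Slc25a4, the ADP and ATP carrier, had 230, 289 and 241 FPKM in KO libraries, against 161, 162 and 159 FPKM in WT libraries. Its log2 fold change was 0.65 ± 0.08 (edgeR adjusted p = 0.000174), and all KO libraries lay well above the WT libraries. Vdac1, the pore of the outer membrane, rose by 0.43 on the log2 scale. Ucp2, an uncoupling protein, had 1.90, 1.86 and 1.34 FPKM in KO libraries, against 7.53, 9.94 and 8.49 FPKM in WT libraries, with a log2 fold change of -2.35 ± 0.16 (edgeR adjusted p = 4.28e-06).

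Of 27 genes of the TCA cycle and pyruvate dehydrogenase, 10 rose and 6 fell, or 59.3% called, and 10 rose and 9 fell without KO replicate 2. Pdk4, the kinase that switches pyruvate dehydrogenase off, rose by 1.55 ± 0.08 on the log2 scale. Suclg1, the alpha subunit of succinyl-CoA ligase, rose (0.74) and Sucla2, its ATP-specific beta subunit, fell (-0.55), a pair of opposite changes within the enzyme. Ubiquinone synthesis had 4 of 13 genes that rose and 2 that fell (4 and 3 without KO replicate 2), with Coq9 at 0.52, Pdss2 at 0.44 and Coq10b at -0.48. Genes of the MICOS complex and inner membrane shape had 7 of 15 that rose and 1 that fell (7 and 2 without KO replicate 2), led by Phb, prohibitin, at 0.61, Chchd6 at 0.50 and the protease Oma1 at 0.39. The share called was 46.2% for ubiquinone synthesis and 53.3% for MICOS, beside 59.6% of all genes. In the fit without KO replicate 2 the shares were 70.4% for the TCA cycle list, 53.8% for ubiquinone synthesis and 60% for MICOS, beside 71.1% of all genes.

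Against the subunits' 25 rises and 5 falls among 79, the mitochondrial ribosome had 34 rises and 5 falls among 78 genes and the cytosolic ribosome 29 rises and 4 falls among 82. The largest rises were those of Mrpl41 (0.88), Mrpl35 (0.74) and Mrpl34 (0.66), and of Rps24 (0.95) and Rpl15 (0.61). Without KO replicate 2, the mitochondrial ribosome had 32 rises and 21 falls and the cytosolic ribosome 38 rises and 27 falls. With all libraries, 50% of the mitochondrial and 40.2% of the cytosolic ribosome genes were called, beside 38% of the subunits and 59.6% of all genes. In the fit without KO replicate 2 these shares were 67.9%, 79.3%, 73.4% and 71.1%. The medians of the log2 fold change with all libraries were 0.15, 0.20 and 0.16 for the subunits, the mitochondrial and the cytosolic ribosome, and 0.03, 0.08 and 0.04 without KO replicate 2, so the 3 groups of short genes had like medians in each fit.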

How the data were processed

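Polyadenylated RNA of 6 libraries was measured, prepared with the TruSeq Stranded mRNA kit per the labels' protocols. The authors deposited raw counts of reads for each gene and, in a second table, FPKM of the same genes. A deposited FPKM equals its count divided by depth and by 1 derived length per gene, to within 8.04e-05% over 84086 non-zero values. Per the submitters' processing notes, the tools were Trimmomatic, HISAT2, Cufflinks, HTSeq and DESeq and the build was GRCm39. Not given in the sources used here are tool versions, settings, the annotation, the use of strand and the treatment of reads shared with gene copies. Many subunit genes have processed pseudogenes, and overlapping antisense genes exist, so small changes are uncertain to that extent. All columns belong to these samples (0 others).

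Counts were filtered with filterByExpr, scaled by TMM and compared by the quasi-likelihood test of edgeR (version 4.0.16, with limma 3.58.1, DESeq2 1.42.0 and R 4.3.3) over all genes, with KO and WT as the only term, and Benjamini-Hochberg adjustment over all 11972 genes. The tested genes hold at least 99.9% of the reads of each library. A gene was called at an adjusted p under 0.05, as having risen or fallen in KO cells. Log2 fold changes are KO over WT. Standard errors are the absolute log2 fold change over the square root of F, since the fit gives none. CPM uses TMM-scaled totals, and FPKM compares levels between genes. The length correction added a smooth trend of log2 ratio on log length (lowess span 0.3) to each library's offsets. The main fit, the replicate block, the length correction and DESeq2 were first tested on simulated counts. These counts held no length trend and no outlying library. The fit without KO replicate 2 and the other alternatives were not tested in this way. The spread between libraries was a biological coefficient of variation of 7.76%. Depth limits the tissue isoforms, and counting intervals on them cover counting error only.

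The members, the gene lists (assembly factors, subunits outside the naming rule, regulators, mitochondrial DNA expression, TCA cycle, ubiquinone, electron entry, exchange, MICOS, ribosomes, cell type markers) and the pairs were chosen with earlier results of these data known. Named by rule were the 2 highest and 2 lowest called genes and the most abundant gene of each complex, the isoform sets, and up to 3 called genes per list with the largest change. Members whose call differs without KO replicate 2 were named or only counted. Other genes named, among them Ndufa8, Ndufa13, Atp5d and the regulators tied to a motif, were chosen after their values were seen. Alternatives covered scaling, filters, DESeq2, limma on log2(FPKM + 1) and log2(FPKM + 0.1), a replicate block, the length correction and leaving out each library. Replicate numbers were checked for pairing. Results of some genes are not reported here.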

Additional observations from a re-analysis of the deposited data

How the results depend on the processing

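With all libraries, 30 subunits were called, 25 as higher and 5 as lower in KO. The number called was 54 after the length correction (25 lower) and 50 with the length correction and a replicate block together (26 lower). Leaving out each library in turn gave 15 to 58 called, 13 to 32 higher and 2 to 30 lower: 58 without KO replicate 2, but 18, 19 and 15 without WT replicate 1, 2 or 3. Scaling the libraries to the summed subunit counts, an alternative chosen after seeing the data, called 14 as higher and 15 as lower and moved the median log2 fold change of all genes to -0.10. The subunits' median log2 fold change was 0.15 and stayed above 0 under every alternative run, between 0.03 and 0.22. DESeq2 called 33, including all 30. The replicate block alone called 28, of which 26 were among the 30. Deviations from the group mean correlated at -0.07, -0.09 and 0.02 between same-numbered libraries, and at -0.08 to 0.11 between the others. The KO mean includes KO replicate 2, which stood apart, so these values cannot exclude that replicate numbers pair the samples. Without KO replicate 2, the number called was 58, and 45 (DESeq2) to 61 (no scaling) under the alternatives, with 47 to 58 when a further library was left out. Over all genes 7136 were called, and every alternative stayed within 1.5-fold of that count. Of 1275 values of 75 named genes under the alternatives, 1202 kept direction and call, and none changed sign among called genes. The cause of the changes was not tested.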

Other observations

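Of 15 fibroblast markers tested, 6 rose and 6 fell in KO cells, or 80% called, beside 59.6% of all genes. Lum, lumican, had a log2 fold change of 4.25, Postn, periostin, -4.83 and Col3a1, a collagen, -1.64. Few markers of other cells had enough reads to be tested: 1 epithelial, 1 leukocyte, 2 endothelial, 3 muscle and 2 neural markers. Of these, 5 passed the test: Krt8 (2.04), Cd68 (0.51), Cdh5 (3.0) and Tnnc1 (1.16) rose, and Map2 (-2.78) fell. Several had few reads. Cdh5 had 22, 51 and 23 reads in KO libraries, against 2, 6 and 3 reads in WT libraries. Tnnc1 had 32, 47 and 40 reads against 17, 11 and 22, and Krt8 had 70, 86 and 81 reads against 21, 13 and 20.

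KO replicate 2 held further transcripts of fast skeletal muscle, looked up after the muscle markers had been seen. Acta1, skeletal actin, had 4, 1071 and 8 reads in KO replicates 1, 2 and 3, against 2, 5 and 2 reads in WT replicates 1, 2 and 3. Mb, myoglobin, had 1, 185 and 3 reads in KO libraries, against 3, 0 and 0 reads in WT libraries. Ckmt2, the creatine kinase of muscle mitochondria, had 85 reads in KO replicate 2 and 0 in each other library. Their source was not tested.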
